A study of Mus musculus with 21 samples.

Results

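The comparison of sorted neural crest cells from the pinna of E12.5 mouse embryos with those from the second pharyngeal arch (PA2) of E10.5 embryos rests on 6 of the 21 RNA-seq libraries of the series, 3 per group. The libraries were chosen by their labelled stage and location in the stage series, with no use of measured values. The series addresses how long-range enhancers act on Hoxa2 in the cells that build the outer ear, and holds in addition a later pinna stage (E14.5) and libraries of PA2 and PA3 from WT embryos and from embryos with a deleted enhancer region. All 6 libraries came from WT Wnt1::Cre;ROSARFP embryos, in which a Cre recombinase driven by the Wnt1 promoter switches on a red fluorescent protein in neural crest cells and their descendants. Tissue was micro-dissected, dissociated with trypsin at both stages and sorted for the reporter, and the mice were of mixed C57Bl/6J and CD1 background with embryos of both sexes pooled. The sort therefore takes whatever lineages the Wnt1-Cre marked cells have entered, and the replicates are described as independent biological preparations. Stage and dissected tissue changed together, so that an effect of age and an effect of taking the pinna in place of the whole arch cannot be told apart.

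Pharyngeal arches are transient swellings of the embryonic face and neck, filled with mesenchyme that comes mostly from the cranial neural crest. Crest cells reach the arches as multipotent, fast dividing cells. They read their place from signals of the surrounding epithelium (Sonic hedgehog, Fibroblast growth factors, Endothelin-1, Bone morphogenetic proteins) and answer with positional transcription factors such as the Dlx, Hand and forkhead genes. Hoxa2, a homeodomain factor expressed in the crest of PA2 but not of the first arch, gives PA2 its identity, and without it the pinna does not form. The pinna grows out from the arch surface as a fold of skin over crest-derived mesenchyme, which later makes the dermis, the elastic cartilage and their connective tissue.

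Each library held 29.2 to 30.2 M counts at E10.5 and 25.8 to 29.5 M at E12.5, where 1 M is 1e+06. Values are given as CPM, a library's counts scaled to 1 M, with library sizes adjusted by the trimmed mean of M-values (TMM). The first principal component of the 6 libraries took 92.26% of the variance and separated the stages. Replicates correlated at 0.994 to 0.997 (Pearson's r across genes, which are not independent replicates), and none was a copy of another. Markers of crest mesenchyme were present at both stages. The crest mesenchyme genes Prrx1 and Twist1 stood at 359.7 ± 23.2 and 209 ± 6.44 CPM (mean ± SD, n = 3) at E10.5 and at 498 ± 21.6 and 495 ± 36.2 CPM at E12.5. The summed level of 24 endothelial markers was 34.5 to 38.7 CPM at E10.5 and 44.0 to 64.2 CPM at E12.5, that of 32 epithelial markers 38.0 to 51.3 and 43.2 to 48.9 CPM, and that of 16 erythroid markers 3.78 to 9.81 and 4.60 to 13.7 CPM. In the 3 WT PA2 libraries of the other table, for which no sort is stated, the same sums were 513 to 551, 604 to 665 and 1627 to 2565 CPM, although the tables were normalized separately. The study had single-end and paired-end RNA-seq datasets and made no comparison across these kinds. In such bulk libraries, fewer cells of a type and less RNA per cell cannot be told apart.

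The stages differed in 68.78% of the genes tested. Of 13438 genes tested by edgeR's quasi-likelihood test, 4710 (35.0%) were higher and 4532 (33.7%) lower in E12.5 pinna crest at an adjusted p under 0.05, and these shares are the background for every list count given here. Changes of at least 2-fold were more often upward, with 1985 genes (14.8%) higher and 912 (6.79%) lower. The median log2 fold change over all genes tested was 0.01, and fold changes are E12.5 over E10.5 with their standard errors throughout. In 10014 genes the 3 libraries of one stage all lay above the 3 of the other. For genes named here as rising or falling, the ranges of the groups did not overlap unless that is said. E14.5 values are given for reference and come from the same fit.

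**Figure D1:**
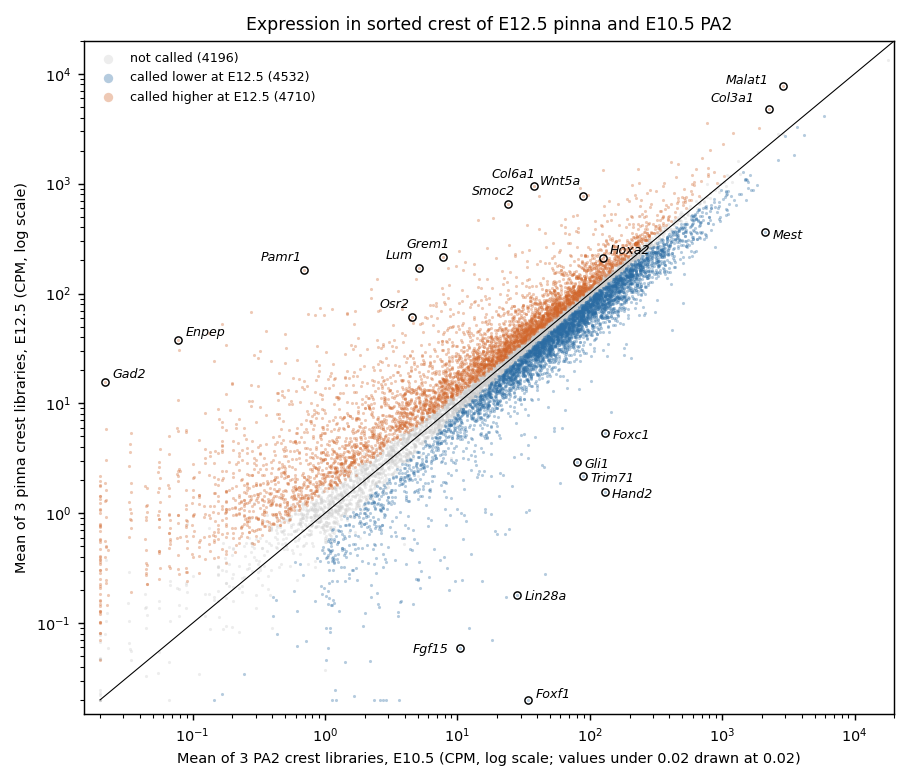
Mean level of each gene tested in the 3 PA2 crest libraries of E10.5 (x axis) and the 3 pinna crest libraries of E12.5 (y axis), in CPM on log scales, with the line of equal levels. The 4710 genes called higher and 4532 called lower lie on both sides of the line over the whole range of expression, and the labelled genes furthest from it include Gad2, Enpep and Pamr1 above and Foxf1, Lin28a and Hand2 below.

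The largest rises were in genes close to silent in the arch. Pamr1, which encodes a secreted protease-like protein of muscle and connective tissue, stood at 0.502, 0.824 and 0.752 CPM at E10.5 and 173, 158 and 162 CPM at E12.5 (log2 fold change 7.89 ± 0.22, adjusted p = 4.8e-10). Enpep, the aminopeptidase A of the cell surface, went from 0.0779 to 38.1 CPM (log2 fold change 8.87 ± 0.15, adjusted p = 1.2e-11), and the transporter gene Abca8a from 0.0786 to 30.6 CPM (log2 fold change 8.55 ± 0.22, adjusted p = 3.2e-10). Several of the genes that rose most are better known from neurons and sensory cells than from mesenchyme. Gad2, which makes the inhibitory transmitter GABA, gave 2 counts over the E10.5 libraries and 1368 over the E12.5 libraries, a ratio of 705 (95% interval 195 to 5826) in which the interval covers counting error only. Otof, the otoferlin of hair cell synapses, rose from 0.133 to 43.8 CPM, and the calcium buffer gene Calb1 from 0.167 to 52.7 CPM. The cation channel gene Trpm5 rose from 0.144 to 24.5 CPM and stood at 248 ± 16.0 CPM at E14.5. The neuropeptide Y receptor gene Npy2r rose from 0.0776 to 10.8 CPM and was back at 0.0723 ± 0.0341 CPM at E14.5. Dsc3 (a desmosomal cadherin), Csmd1, Nppc (C-type natriuretic peptide) and the transcription factor gene Sim1 completed the 12 largest rises, with E12.5 means of 67.8, 34.3, 5.90 and 5.37 CPM.

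The largest falls were led by forkhead factors and by genes of the early embryo. Foxf1, a target of Hedgehog signalling in mesenchyme, had 37.1, 32.4 and 33.5 CPM at E10.5 and a single count in the E12.5 libraries together, a ratio of E10.5 to E12.5 of 2988 (95% interval 536 to 118040). Its relative Foxf2 stood at 17.5, 18.2 and 19.2 CPM at E10.5 and 0.0743, 0.0326 and 0.102 CPM at E12.5 (log2 fold change -7.98 ± 0.45, adjusted p = 5.6e-08). Fgf15 fell from 10.48 to 0.0593 CPM and Cyp26a1, which degrades retinoic acid, from 23.4 to 0.174 CPM. The tight junction gene Cldn11, the Wnt and FGF antagonist gene Shisa3, Pcp4l1 and Foxl1 also belonged to the 12 largest falls, with E12.5 means between 0.0893 and 0.248 CPM. Counted in CPM, the largest rises were those of the nuclear RNA Malat1 (from 2882 to 7823 CPM) and of Col1a2, Col3a1, Vcan, Pdgfra, Peg3, Fat1 and Col6a3, which are mostly genes of the matrix, of its receptors and of cell adhesion. The largest falls in CPM were those of Actb (from 5892 to 4121 CPM), Mest, Hsp90ab1, H19, Grb10, Trim28, Top2a and the linker histone gene H1f1.

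Hoxa2 itself rose. It stood at 122, 126 and 128 CPM at E10.5 and 202, 222 and 212 CPM at E12.5, which is 1.69-fold higher at E12.5 (log2 fold change 0.76 ± 0.06, adjusted p = 8.5e-07), and at 155 ± 8.61 CPM at E14.5. The gene lies at chr6:52162417-52164831 (minus strand) on GRCm38, and 15.0% of its exonic bases are shared with a transcript annotated on the same strand (Gm28308). Of 45 Hox genes and Hox-linked transcripts, 9 passed the filter on low counts, of which 5 rose and 3 fell (median log2 fold change 0.74). The antisense transcript Hoxaas2, whose exons share bases with Hoxa3, went from 28.3 to 47.3 CPM (log2 fold change 0.74 ± 0.12, adjusted p = 1.5e-04), Hoxa3 from 2.09 to 4.12 CPM and Hotairm1, a non-coding transcript of the HoxA cluster, from 1.14 to 2.19 CPM. Hoxb transcripts moved both ways. Hoxb9 had no count over the E10.5 libraries and 9 over the E12.5 libraries. That is 3.09-fold higher when E10.5 is set at a floor of 3 counts over the group, and Hoxb9 passed the filter only through E14.5. Hoxb2 fell from 20.7 to 10.2 CPM (log2 fold change -1.01 ± 0.15, adjusted p = 8.5e-05), Hoxb3 from 4.10 to 1.31 CPM and Hoxb3os, which shares 27.3% of the exonic bases of Hoxb2 on the opposite strand, from 16.3 to 12.3 CPM.

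Several TALE homeodomain partners with which Hox proteins bind DNA rose with Hoxa2. Meis1 stood at 333, 372 and 425 CPM at E10.5 and 669.5, 642 and 626 CPM at E12.5 (log2 fold change 0.78 ± 0.08, adjusted p = 5.9e-06). Meis2 rose from 518 to 744 CPM. The summed level of the Hox cofactor list was 1304 to 1439 CPM at E10.5 and 2046 to 2166 CPM at E12.5. Pknox1 rose from 59.1 to 67.3 CPM, a call lost without the first or second E10.5 library (adjusted p 0.0759 and 0.0573), without the first E12.5 library (0.0905) and without a filter (0.0591), whereas Pknox2 fell from 30.4 to 9.93 CPM (log2 fold change -1.62 ± 0.14, adjusted p = 1.2e-06). Meis3, Pbx3 and Pbx4 did not pass the test, with adjusted p of 0.0911, 0.0667 and 0.891. Without the third E10.5 library Meis3 was called lower (log2 fold change -0.31, adjusted p = 0.0296), and Pbx3 was called higher in 3 alternatives (adjusted p 0.00757 to 0.0329).

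The transcription factors that mark places within the arch changed widely and mostly downward. Of 62 arch positional factors tested, 20 rose and 37 fell, 12 and 29 of them by at least 2-fold (median -0.78). Hand2, the factor of the distal (ventral) arch downstream of Endothelin-1, stood at 137, 122 and 129.5 CPM at E10.5 and 0.966, 1.53 and 2.14 CPM at E12.5, 83.8-fold lower (log2 fold change -6.37 ± 0.19, adjusted p = 7.2e-10). Its antisense neighbour Hand2os1, which overlaps 19.6% of the exonic bases of Hand2, fell from 45.9 to 0.281 CPM. Hand1 had 323 counts over the E10.5 libraries and none at E12.5, 104-fold lower when E12.5 is set at a floor of 3 counts over the group. Other factors of arch mesenchyme that fell were Gsc (43.0, 58.4 and 59.8 CPM at E10.5 and 7.17, 5.94 and 4.66 CPM at E12.5), Msx2 (from 11.3 to 0.968 CPM), Pitx1 (from 4.54 to 0.460 CPM), Isl1 (from 4.64 to 0.150 CPM) and Tbx3 (from 10.6 to 1.00 CPM). Foxc1 and Foxc2, forkhead factors of arch mesenchyme and periocular crest, fell from 131 to 5.32 CPM (log2 fold change -4.63 ± 0.13, adjusted p = 5.9e-10) and from 43.6 to 2.74 CPM (log2 fold change -3.99 ± 0.21, adjusted p = 4.3e-08).

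The Dlx genes, the nested code of the dorsoventral arch axis, split. Dlx2 stood at 72.5, 78.1 and 86.2 CPM at E10.5 and 27.3, 22.3 and 27.2 CPM at E12.5 (log2 fold change -1.63 ± 0.11, adjusted p = 3.0e-07), Dlx1 fell from 140.2 to 82.7 CPM and Dlx3 from 151 to 87.0 CPM. Dlx6 stood at 52.2, 53.8 and 55.0 CPM at E10.5 and 102, 114 and 103 CPM at E12.5 (log2 fold change 0.99 ± 0.07, adjusted p = 2.3e-07), and its neighbour Dlx5 went from 52.4 to 60.9 CPM (log2 fold change 0.22 ± 0.08, adjusted p = 0.0369), a rise that was not called in 5 of the alternatives (adjusted p 0.0555 to 0.140). Those were the fits without the first E10.5 library (0.140) or the second or the third E12.5 library (0.0765 and 0.0958), without a filter, and on the 6 libraries alone. Dlx4 averaged 19.5 ± 2.57 and 19.6 ± 3.15 CPM (adjusted p = 0.955). Six4, a homeodomain factor that acts with Eya proteins, fell from 109 to 38.5 CPM. The partner gene Eya1 averaged 38.6 ± 7.12 and 36.7 ± 5.69 CPM (adjusted p = 0.707). The nuclear receptor genes Nr2f1 and Nr2f2, which mark the dorsal arch, fell from 418 to 234 CPM and from 93.9 to 28.5 CPM. Barx1, of the arch mesenchyme that makes cartilage and tooth, fell from 102 to 27.0 CPM.

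A smaller set of positional factors rose strongly. Irx3 stood at 9.40, 14.2 and 16.7 CPM at E10.5 and 179.8, 187 and 187 CPM at E12.5 (log2 fold change 3.78 ± 0.20, adjusted p = 3.9e-08), and its genomic neighbour Irx5 rose from 11.1 to 164 CPM (log2 fold change 3.89 ± 0.23, adjusted p = 8.2e-08). Osr2 and Osr1, odd-skipped factors of craniofacial and limb connective tissue, rose from 4.58 to 61.5 CPM and from 28.0 to 116 CPM. Tbx15, whose loss in mice changes skeleton, skin patterning and ear shape, stood at 19.6, 26.1 and 28.9 CPM at E10.5 and 162, 162 and 144 CPM at E12.5 (log2 fold change 2.65 ± 0.12, adjusted p = 1.1e-08). Tbx22 rose from 0.645 to 10.3 CPM and Meox2 from 3.39 to 22.5 CPM. Pou3f3, a marker of dorsal arch mesenchyme, stood at 215, 209 and 189 CPM at E10.5 and 505, 516 and 492 CPM at E12.5 (log2 fold change 1.30 ± 0.06, adjusted p = 2.0e-08) and at 191 ± 7.45 CPM at E14.5. The basonuclin genes Bnc2 and Bnc1 rose from 109.7 to 384 CPM and from 55.4 to 114 CPM, and Msx1 from 101 to 173 CPM.

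**Figure D2:**
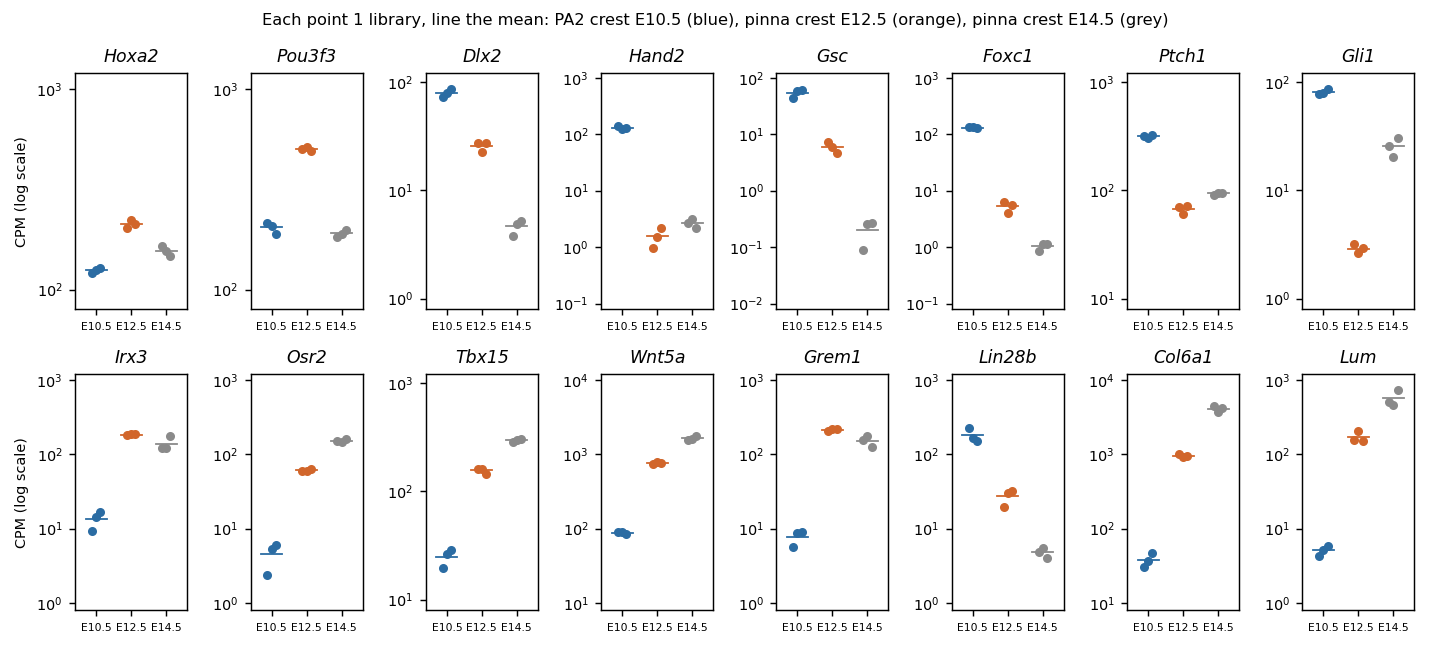
Level of 16 genes in each library, in CPM on log scales, with the mean of each group of 3 as a line: PA2 crest at E10.5, pinna crest at E12.5 and, for reference, pinna crest at E14.5. The E10.5 and E12.5 points of every gene shown lie apart, with Hand2, Gsc, Foxc1, Ptch1, Gli1, Dlx2 and Lin28b lower and the other 9 genes higher at E12.5, and Pou3f3 is at 191 CPM at E14.5 after 504 CPM at E12.5.

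Several target genes of Hedgehog signalling, but not all, were lower in the pinna crest. Ptch1, the receptor and a direct target of the pathway, stood at 314, 302 and 324 CPM at E10.5 and 70.4, 60.8 and 70.8 CPM at E12.5 (log2 fold change -2.22 ± 0.07, adjusted p = 1.2e-09). Gli1, a transcription factor induced by the signal, stood at 77.3, 79.6 and 85.1 CPM at E10.5 and 3.16, 2.61 and 2.92 CPM at E12.5 (log2 fold change -4.80 ± 0.15, adjusted p = 1.3e-09). Gli1 was 27.8-fold lower, and at E14.5 it was measured at 25.5 ± 5.05 CPM and Ptch1 at 93.4 ± 2.52 CPM. Foxf1, Foxf2 and Foxl1, forkhead genes that Hedgehog signals switch on in many mesenchymes, were among the 12 largest falls. Hhip, a target that also binds the ligand, averaged 15.8 ± 1.76 and 17.1 ± 3.47 CPM (adjusted p = 0.632). The components that release, receive and pass on the signal moved both ways. Smo fell from 330.4 to 279 CPM, whereas the co-receptor genes Boc and Cdon rose from 72.1 to 219 CPM (log2 fold change 1.60 ± 0.12, adjusted p = 6.8e-07) and from 154 to 532 CPM (log2 fold change 1.79 ± 0.08, adjusted p = 1.5e-08), Disp1, which acts in ligand release, from 71.4 to 157 CPM and Gli2 from 93.2 to 112 CPM. The ranges of Gli2 overlapped, and its call was lost without the first or second E10.5 library (adjusted p 0.138 and 0.0813) or the first or the third E12.5 library (0.115 and 0.0825). Gas1, Sufu and Kif7 did not pass the test, with adjusted p of 0.296, 0.995 and 0.786. Over the 16 genes tested, 4 rose and 8 fell, against backgrounds of 35.0% and 33.7%.

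Wnt pathway genes were more often higher than lower. Of 53 Wnt pathway genes, 30 rose and 9 fell (median 0.72). Wnt5a, a ligand of outgrowing tissues whose loss in mice shortens the face, limbs and ears, stood at 91.2, 89.8 and 84.3 CPM at E10.5 and 747, 799.6 and 767 CPM at E12.5, 8.72-fold higher (log2 fold change 3.12 ± 0.07, adjusted p = 1.8e-10). Wnt11 rose from 6.94 to 81.6 CPM and Wnt2 from 0.721 to 5.78 CPM, while Wnt5b averaged 25.8 ± 1.52 and 22.9 ± 0.364 CPM (adjusted p = 0.0539, but 0.0498 without the first E10.5 library). Of genes that canonical Wnt signals are known to induce, Axin2 rose from 233 to 389 CPM (log2 fold change 0.74 ± 0.08, adjusted p = 6.2e-06), Lef1 from 61.8 to 149 CPM (log2 fold change 1.27 ± 0.09, adjusted p = 4.5e-07), Nkd1 from 63.4 to 157 CPM, Lgr5 from 5.35 to 22.9 CPM and Apcdd1, itself an inhibitor, from 139 to 703 CPM (log2 fold change 2.33 ± 0.08, adjusted p = 1.7e-09). Secreted antagonists were split, with Dkk2 up from 41.8 to 199 CPM and Sfrp2 from 116 to 285 CPM but Dkk1 down from 9.72 to 4.09 CPM. Among the receptors, Fzd10 rose from 26.6 to 77.6 CPM whereas Fzd5 fell from 17.96 to 3.45 CPM, Fzd4 from 245 to 167 CPM and the co-receptor gene Lrp5 from 201 to 120.4 CPM.

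Bone morphogenetic protein (BMP) and transforming growth factor beta genes rose in 30 of 51 cases and fell in 5 (median 0.63). Ligand genes moved both ways. Bmp5, the gene of the short ear mouse, stood at 16.4, 15.9 and 17.2 CPM at E10.5 and 92.8, 87.7 and 85.2 CPM at E12.5 (log2 fold change 2.42 ± 0.07, adjusted p = 9.4e-10), though 46.7% of its exonic bases are shared with a transcript annotated on the opposite strand. Bmp7 rose from 7.83 to 30.6 CPM, Bmp3 from 1.53 to 17.1 CPM and Tgfb3 from 24.2 to 108 CPM, while Gdf6 fell from 8.18 to 0.787 CPM and Gdf11 from 94.4 to 57.6 CPM. Bmp4 went from 20.6 to 25.3 CPM with ranges that overlapped, and its call was lost without the first or the second E10.5 library (adjusted p 0.0880 and 0.107) or the first or the second E12.5 library (0.0608 and 0.0628). Grem1, a secreted BMP antagonist, stood at 5.69, 8.75 and 8.92 CPM at E10.5 and 208, 222 and 216 CPM at E12.5 (log2 fold change 4.79 ± 0.17, adjusted p = 2.2e-09), 27.7-fold higher. Chordin (Chrd) rose from 6.07 to 34.7 CPM and Bmper from 54.0 to 155 CPM, whereas Bambi, a decoy receptor and target of the pathway, stood at 47.7, 36.4 and 35.2 CPM at E10.5 and 14.4, 13.2 and 14.4 CPM at E12.5 (log2 fold change -1.51 ± 0.15, adjusted p = 4.8e-06). The receptor genes Tgfbr2 and Tgfbr3 rose from 22.1 to 122 CPM (log2 fold change 2.46 ± 0.09, adjusted p = 2.9e-09) and from 46.2 to 188 CPM, and Bmpr1a from 367 to 593 CPM. Among direct targets, Id1 rose from 51.6 to 80.8 CPM and Id2 from 92.4 to 116 CPM, while Id3, Smad6 and Smad7 did not pass the test (adjusted p 0.310, 0.993 and 0.766).

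The FGF genes had 9 higher and 10 lower of 26. Of the mesenchymal ligands, Fgf7 stood at 2.04, 1.65 and 1.80 CPM at E10.5 and 25.4, 30.2 and 27.3 CPM at E12.5 (log2 fold change 3.92 ± 0.12, adjusted p = 8.7e-10), Fgf10 was up from 3.50 to 19.1 CPM and Fgf18 from 0.310 to 3.98 CPM, while Fgf15 was lost and Fgf3 fell from 1.09 to 0.0831 CPM. Targets of FGF signalling did not move as 1 group. Etv4 stood at 36.9, 35.7 and 29.5 CPM at E10.5 and 3.27, 4.08 and 5.17 CPM at E12.5 (log2 fold change -3.02 ± 0.26, adjusted p = 1.4e-06), Etv5 fell from 39.8 to 18.4 CPM and Dusp6 from 154 to 67.6 CPM, but Spry2 rose from 36.4 to 67.8 CPM and Spry4 from 11.1 to 23.4 CPM. Fgfr1, the main receptor gene of this mesenchyme by level, averaged 344 ± 21.95 and 358 ± 24.5 CPM (adjusted p = 0.490).

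In the retinoic acid pathway the degrading enzymes switched. Cyp26a1 stood at 29.4, 23.4 and 17.3 CPM at E10.5 and 0.223, 0.131 and 0.170 CPM at E12.5, and Cyp26b1 at 25.4, 42.4 and 56.1 CPM at E10.5 and 357, 396 and 399 CPM at E12.5 (log2 fold change 3.22 ± 0.21, adjusted p = 2.1e-07), 9.29-fold higher. The synthetic enzyme gene Aldh1a2 rose from 15.3 to 37.6 CPM and the binding protein gene Crabp1 from 191 to 478 CPM, whereas Crabp2 fell from 239 to 182 CPM. Rarb, a direct target of the receptors, averaged 14.7 ± 3.03 and 17.3 ± 1.74 CPM (adjusted p = 0.149), and was called higher without the third E10.5 library (log2 fold change 0.41, adjusted p = 0.0115). Of the exonic bases of Rarb, 38.4% are shared with genes on the opposite strand (Gm48162 and Top2b). Of the endothelin genes, the receptor gene Ednra rose from 67.8 to 91.9 CPM, with 7 of 10 genes higher and 1 lower, although Hand2 and Gsc, named above, are among the known targets of this receptor. Among the 7 was Edn2, with no count over the E10.5 libraries and 9 over the E12.5 libraries, which passed the filter only through E14.5. Only 1 of the 7 rose by at least 2-fold, and the ligand gene Edn1 did not pass the filter. Notch pathway genes went both ways, 7 up and 7 down of 18, with Hey1 down from 31.8 to 5.22 CPM, Jag1 from 51.0 to 26.9 CPM and Notch3 from 277 to 148 CPM, and Hes1 up from 31.7 to 66.2 CPM and Notch2 from 463 to 691 CPM. Of the insulin-like growth factor axis, Igfbp3 rose from 13.4 to 150.5 CPM, Igfbp5 from 269 to 831 CPM and Igf1 from 60.7 to 109 CPM, while Igf2 fell from 758 to 343 CPM. A transcript annotated on the same strand (Gm49394) shares 62.8% of the exonic bases of Igf2.

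Genes that mark early developmental time mostly fell. Lin28a, which keeps let-7 microRNAs from maturing, stood at 44.4, 23.8 and 16.4 CPM at E10.5 and 0.0743, 0.163 and 0.306 CPM at E12.5 (log2 fold change -7.23 ± 0.53, adjusted p = 2.2e-06). Its relative Lin28b stood at 229, 164 and 149 CPM at E10.5 and 19.7, 30.2 and 32.3 CPM at E12.5 (log2 fold change -2.72 ± 0.20, adjusted p = 4.2e-07). Trim71, a let-7 target that maintains early cell fates, fell from 88.7 to 2.16 CPM (log2 fold change -5.36 ± 0.22, adjusted p = 6.1e-09), Sall4 from 33.0 to 1.03 CPM, Arid3b from 48.0 to 9.26 CPM and the oncogene Mycn from 107 to 29.7 CPM. The RNA-binding Igf2bp1 fell from 890.2 to 264 CPM and Igf2bp3 from 399 to 192 CPM. Of the 19 genes of the list, 13 fell, 11 of them by at least 2-fold, and 5 rose (median -1.16). Hmga2, another let-7 target, was among the 5 and stood at 354, 369 and 353 CPM at E10.5 and 619.7, 819 and 670 CPM at E12.5 (log2 fold change 0.97 ± 0.13, adjusted p = 3.9e-05). Mir99ahg, a host transcript of let-7c, miR-99a and miR-125b, rose from 21.1 to 39.6 CPM.

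The genes of DNA synthesis and cell division fell together. All 49 DNA replication genes and all 41 mitosis genes tested were lower, against a background of 33.7%, with median log2 fold changes of -0.999 and -1.05. The falls ranged from -0.50 to -1.74 and from -0.44 to -1.55. Pcna, the sliding clamp of DNA polymerase, stood at 273, 228 and 227 CPM at E10.5 and 103, 98.5 and 94.2 CPM at E12.5 (log2 fold change -1.30 ± 0.08, adjusted p = 1.2e-07). The helicase subunit gene Mcm2 stood at 456, 486 and 456 CPM at E10.5 and 265, 257 and 255 CPM at E12.5, and Rrm2 of deoxynucleotide synthesis fell from 408 to 122 CPM (log2 fold change -1.74 ± 0.08, adjusted p = 9.9e-09). Mki67, the proliferation marker, stood at 1136, 1180.3 and 1090 CPM at E10.5 and 659.5, 649.7 and 653 CPM at E12.5 (log2 fold change -0.80 ± 0.12, adjusted p = 1.3e-04), cyclin B1 (Ccnb1) fell from 96.7 to 44.6 CPM and Top2a from 1717 to 882 CPM. Of 60 replication-dependent histone genes, 58 were lower (median -1.08), and their summed level was 13450 to 15980 CPM at E10.5 and 6656 to 7381 CPM at E12.5. Histone genes are near-identical copies whose reads may be shared, so that the count of genes is less certain than their sum. The DNA replication list summed to 9334 to 9574 CPM at E10.5 and 4550 to 4609 CPM at E12.5, and the mitosis list to 8976 to 10250 and 4693 to 5176 CPM.

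Regulators of cell cycle exit moved both ways. Cdkn1c, the imprinted inhibitor p57, stood at 129, 172 and 190.4 CPM at E10.5 and 677, 633 and 631 CPM at E12.5 (log2 fold change 1.98 ± 0.16, adjusted p = 9.0e-07), with 30.65% of its exonic bases shared with a transcript on the opposite strand. The retinoblastoma relative Rbl2 rose from 12.2 to 42.2 CPM, Btg1 from 55.5 to 126 CPM, Btg2 from 7.62 to 34.6 CPM and Cdkn1b from 64.3 to 85.3 CPM. Cyclin D1 (Ccnd1), which drives entry into the cycle, rose too, from 434 to 826 CPM (log2 fold change 0.93 ± 0.06, adjusted p = 1.2e-07). Of the 20 genes tested, in a list that holds the cyclin D genes too, 9 rose, Ccnd1 among them, 2 fell and 9 did not pass. The falls were those of Rbl1 (from 87.0 to 67.1 CPM) and of the inhibitor gene Cdkn2b, which had 149 counts over the E10.5 libraries and 2 over the E12.5 libraries, a ratio of E10.5 to E12.5 of 72.3 (95% interval 19.7 to 602) and the largest change of the list.

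The promoters of these falling genes were searched for the letters of cell cycle control elements. Within 250 bases before and 50 after the start of each gene (RefSeq, GRCm38.p6), an E2F site, written TTTCGCGC or TTTGGCGC on either strand, was found in 12 of 40 DNA replication genes with a promoter in the table (30.0%), in 1.85% of the 10497 genes tested that have one and in 0.929% of all 27025 genes. The cell cycle homology region (CHR), written TTTGAA on either strand, was found in 24 of 33 mitosis genes (72.7%), in 5 of the 40 replication genes, in 14.1% of the genes tested and in 20.2% of all genes. The E2F forms can overlap on opposite strands, as in Mcm5 and Mcm6, and then count for both. The promoters below are those of the first members of each list that hold the letters, shown in lower case with the E2F or CHR letters in capitals.
Mcm5 at chr8:75109259-75109558 (plus strand): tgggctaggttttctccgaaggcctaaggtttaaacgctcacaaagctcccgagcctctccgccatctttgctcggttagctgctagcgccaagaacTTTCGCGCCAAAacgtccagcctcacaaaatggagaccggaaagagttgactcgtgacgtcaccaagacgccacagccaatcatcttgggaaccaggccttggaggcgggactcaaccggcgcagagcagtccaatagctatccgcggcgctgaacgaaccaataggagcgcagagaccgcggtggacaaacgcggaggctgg
Mcm3 at chr1:20820263-20820562 (minus strand): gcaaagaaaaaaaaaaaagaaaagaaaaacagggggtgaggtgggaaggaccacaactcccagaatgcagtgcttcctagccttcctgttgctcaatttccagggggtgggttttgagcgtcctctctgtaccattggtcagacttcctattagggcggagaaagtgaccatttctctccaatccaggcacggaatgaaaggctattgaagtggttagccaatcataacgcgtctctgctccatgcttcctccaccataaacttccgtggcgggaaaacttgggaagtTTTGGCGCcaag
Mcm6 at chr1:128359656-128359955 (minus strand): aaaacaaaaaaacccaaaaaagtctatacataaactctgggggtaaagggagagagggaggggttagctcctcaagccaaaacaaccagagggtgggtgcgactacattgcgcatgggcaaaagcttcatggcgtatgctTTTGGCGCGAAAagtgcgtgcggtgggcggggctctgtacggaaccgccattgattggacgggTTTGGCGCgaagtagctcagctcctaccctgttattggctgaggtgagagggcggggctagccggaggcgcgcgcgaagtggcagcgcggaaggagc
Mki67 at chr7:135716330-135716629 (minus strand): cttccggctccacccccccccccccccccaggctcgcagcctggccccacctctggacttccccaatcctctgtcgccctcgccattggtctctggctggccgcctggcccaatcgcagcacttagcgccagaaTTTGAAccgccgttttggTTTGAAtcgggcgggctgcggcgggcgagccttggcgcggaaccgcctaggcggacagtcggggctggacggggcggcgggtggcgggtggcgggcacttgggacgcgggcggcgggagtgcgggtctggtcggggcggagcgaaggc
Top2a at chr11:99024140-99024439 (minus strand): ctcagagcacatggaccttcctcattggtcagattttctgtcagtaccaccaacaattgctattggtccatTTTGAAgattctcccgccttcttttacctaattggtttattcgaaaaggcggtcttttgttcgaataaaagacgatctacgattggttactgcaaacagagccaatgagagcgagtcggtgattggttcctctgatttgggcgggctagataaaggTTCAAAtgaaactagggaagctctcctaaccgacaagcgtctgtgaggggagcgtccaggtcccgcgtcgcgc
Ccnb2 at chr9:70421505-70421804 (minus strand): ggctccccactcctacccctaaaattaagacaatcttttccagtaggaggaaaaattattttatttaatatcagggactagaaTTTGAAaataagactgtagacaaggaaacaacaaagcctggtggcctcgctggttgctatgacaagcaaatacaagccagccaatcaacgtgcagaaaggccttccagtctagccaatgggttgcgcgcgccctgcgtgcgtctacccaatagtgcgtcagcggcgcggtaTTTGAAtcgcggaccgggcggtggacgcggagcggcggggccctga

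The genes of these promoters fell from 583 to 243 CPM (Mcm5), 443 to 192 CPM (Mcm3), 577 to 350.1 CPM (Mcm6), 1136 to 654 CPM (Mki67), 1717 to 882 CPM (Top2a) and 132 to 63.6 CPM (Ccnb2). In Mcm5 the E2F run starts 153 bases before the gene start and in Mcm6 110 bases before it, whereas in Mcm3 the match lies 38 bases after the start. A match describes these letters only, and whether a factor binds there was not tested. The other letters searched are given as shares of the genes with a promoter, beside those of the 10497 genes tested that have one. The E-box CACGTG was in 7 of 40 DNA replication genes (17.5%), 2 of 33 mitosis genes, 0 of 29 collagen genes and 0 of 12 Hedgehog genes, against 11.8% of the genes tested and 8.09% of all. The MEIS core TGACAG was in 10.0% of the DNA replication, 18.2% of the mitosis, 20.7% of the collagen and 8.33% of the Hedgehog genes, against 1997 of the 10497 genes tested and 21.6% of all. GACCACCCA (the GLI core) and the PBX-HOX letters TGATTGAT were in none of these 4 lists, and in 0.257% and 0.457% of the genes tested and 0.289% and 0.862% of all.

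Growth and energy genes were also mostly lower. Of 25 ribosome biogenesis genes, 24 were lower (median -0.93), among them nucleolin (Ncl, 762, 665 and 696 CPM at E10.5 and 343, 356 and 384 CPM at E12.5), Npm1 (from 846 to 429 CPM) and Nolc1 (from 224 to 89.7 CPM, log2 fold change -1.32 ± 0.06, adjusted p = 7.2e-09). Of 76 ribosomal protein genes, 50 were lower and 1 higher (median -0.29), none by 2-fold, and many have processed copies in the genome that can take their reads. Of 70 genes of oxidative phosphorylation, 59 were lower and 0 higher (median -0.44), Atp5b from 1579 to 911 CPM and Cox5a from 95.4 to 47.6 CPM. The list of glycolysis and hypoxia genes had 11 higher and 17 lower of 33 (median -0.27). Of its enzymes, Ldha stood at 592, 509 and 434 CPM at E10.5 and 159, 146 and 149 CPM at E12.5 (log2 fold change -1.76 ± 0.15, adjusted p = 1.6e-06), Aldoa was down from 508 to 214 CPM, Pkm from 1656 to 869 CPM, Pgk1 from 161 to 64.7 CPM and Hk2 from 49.8 to 17.6 CPM. Hk1 rose from 63.0 to 136 CPM, Vegfa from 64.8 to 125 CPM and Ndrg1 from 2.58 to 20.3 CPM.

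**Figure D3:**
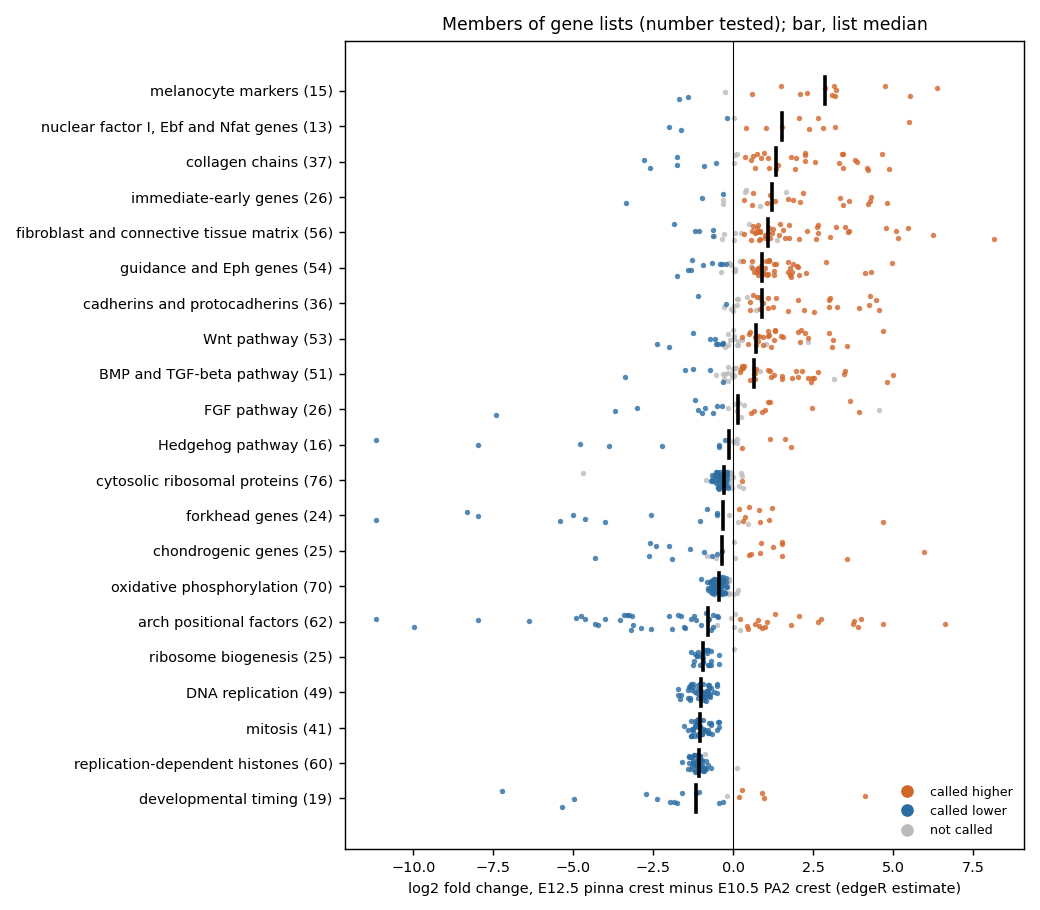
Log2 fold change (x axis, E12.5 pinna crest minus E10.5 PA2 crest) of each gene tested in 21 gene lists, 1 point per gene, with the list median as a bar and the number of genes tested in brackets. DNA replication, mitosis, histone and ribosome biogenesis genes form narrow groups near -1, positional and forkhead factors spread far to the left, and matrix, collagen and nuclear factor I genes lie to the right.

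Extracellular matrix genes were mostly higher. Of 37 collagen chains tested, 28 rose and 6 fell, 21 and 4 by at least 2-fold (median 1.338), and of 56 other matrix and fibroblast genes, 43 rose and 5 fell (median 1.09). Col1a1 and Col1a2, the chains of type I collagen, rose from 232 to 1358 CPM (log2 fold change 2.55 ± 0.17, adjusted p = 2.5e-07) and from 765 to 3581 CPM (log2 fold change 2.23 ± 0.15, adjusted p = 2.9e-07). Col3a1 of soft connective tissue stood at 2121, 2211 and 2401 CPM at E10.5 and 5072, 4718 and 4586 CPM at E12.5, and the 3 chains of type VI collagen, Col6a1, Col6a2 and Col6a3, rose from 38.2 to 958 CPM (log2 fold change 4.65 ± 0.15, adjusted p = 1.2e-09), 41.2 to 769 CPM and 125 to 1339 CPM. Col12a1 and Col14a1, which sit on the surface of collagen fibrils, rose from 84.0 to 909.7 CPM and 7.62 to 111 CPM, and Col7a1, Col8a1 and Col24a1 from 8.64 to 120.5 CPM, 0.577 to 17.0 CPM and 10.8 to 107 CPM. The summed level of the collagen list went from 7539 to 8733 CPM to 19380 to 21240 CPM. Per kilobase of exon, Col3a1 was at 229 and 488 RPKM (CPM per kilobase) and Col1a2 at 63.0 and 295 RPKM.

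Genes of proteins that dress and cross-link the fibrils were among the risers. Lumican (Lum) stood at 4.21, 5.18 and 5.88 CPM at E10.5 and 154, 208 and 152 CPM at E12.5 (log2 fold change 5.07 ± 0.23, adjusted p = 1.1e-08). Decorin (Dcn) stood at 1.37, 1.44 and 1.60 CPM at E10.5 and 63.6, 75.7 and 54.7 CPM at E12.5 (log2 fold change 5.45 ± 0.22, adjusted p = 4.7e-09), and osteoglycin (Ogn) rose from 0.199 to 15.4 CPM. Lysyl oxidase (Lox) rose from 27.1 to 219 CPM, elastin (Eln), the protein of elastic tissue, from 13.3 to 82.9 CPM (log2 fold change 2.63 ± 0.14, adjusted p = 3.4e-08), Fbn1 from 284 to 868 CPM, tenascin C (Tnc) from 33.8 to 419 CPM and periostin (Postn) from 70.1 to 346 CPM. Smoc2, which encodes a matricellular protein, stood at 14.05, 28.8 and 29.1 CPM at E10.5 and 703, 653 and 596 CPM at E12.5 (log2 fold change 4.76 ± 0.24, adjusted p = 3.0e-08). The growth factor receptor genes Pdgfra and Pdgfrb rose from 1008 to 2311 CPM and from 336 to 558 CPM. Basement membrane and procollagen genes went the other way in some cases, with Col18a1 down from 252 to 75.0 CPM, Nid1 from 165 to 105 CPM, Nid2 from 122 to 77.8 CPM and Pcolce from 138 to 60.7 CPM.

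Cartilage genes did not follow the other matrix genes. Sox9, the master regulator of cartilage, stood at 77.0, 77.0 and 79.7 CPM at E10.5 and 26.1, 37.5 and 27.1 CPM at E12.5 (log2 fold change -1.36 ± 0.13, adjusted p = 2.5e-06). Col2a1 stood at 1066, 1077 and 1130.3 CPM at E10.5 and 584, 554 and 596 CPM at E12.5 (log2 fold change -0.92 ± 0.08, adjusted p = 1.2e-06) and Col9a1 fell from 504 to 82.8 CPM (log2 fold change -2.61 ± 0.15, adjusted p = 8.8e-08). Acan fell from 2.08 to 0.516 CPM, Nkx3-2 from 5.05 to 0.248 CPM and Trps1 from 187 to 34.7 CPM, while Col9a2 and Col11a1 did not pass the test (adjusted p 0.729 and 0.672). Of the 25 chondrogenic genes tested, 10 rose, among them Matn4 (from 0.389 to 24.4 CPM), Gdf5 (from 6.71 to 19.2 CPM) and Chst11 (from 27.0 to 76.7 CPM), and 11 fell. At E14.5 Col2a1 stood at 235 ± 26.4 CPM and Sox9 at 1.76 ± 0.261 CPM, whereas Acan was higher than at E12.5, at 11.7 ± 1.97 CPM, and Col9a1 stood at 107 ± 27.2 CPM. Bone genes were low at both stages, with Runx2 at 3.36 ± 1.13 and 3.62 ± 0.339 CPM (adjusted p = 0.726), Sp7 down from 2.56 to 0.766 CPM and Alpl up from 4.92 to 12.47 CPM.

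Dermal fibroblast markers rose in 11 of 21 genes and fell in 4, each fall being at least 2-fold (Trps1, Ebf2, Ebf3 and Dkk1). Twist2, Crabp1 and Lef1 rose, as did Prdm1 (from 1.74 to 17.9 CPM), Lrig1 (from 166 to 422 CPM), Itga8 (from 27.9 to 102 CPM) and Tcf4 (from 364 to 1006 CPM). A transcript on the opposite strand shares 46.5% of the exonic bases of Twist2. Dpp4 and Sox2 were near the floor at both stages, and Sox2 was called lower without the third E10.5 library (adjusted p = 0.0213). Of 13 nuclear factor I, Ebf and Nfat genes, 9 rose and 3 fell (median 1.51). The nuclear factor I genes encode regulators of fetal tissue maturation. Nfix stood at 0.702, 1.24 and 2.45 CPM at E10.5 and 67.7, 63.4 and 68.9 CPM at E12.5 (log2 fold change 5.50 ± 0.25, adjusted p = 1.1e-08). Nfib stood at 47.5, 58.3 and 76.9 CPM at E10.5 and 399.8, 446 and 417 CPM at E12.5 (log2 fold change 2.79 ± 0.14, adjusted p = 3.0e-08), and Nfia rose from 13.7 to 86.0 CPM. The Ebf genes in the same list fell for Ebf2 (from 76.5 to 24.5 CPM) and Ebf3 (from 257 to 63.4 CPM, log2 fold change -2.02 ± 0.12, adjusted p = 7.5e-08) and rose for Ebf4 (from 2.87 to 25.9 CPM).

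Guidance and adhesion genes rose in most cases. Of 54 guidance, ephrin and Eph genes, 37 rose and 9 fell (median 0.91). Sema3a, a repellent of sensory axons, stood at 133, 155 and 145 CPM at E10.5 and 501, 582 and 505 CPM at E12.5 (log2 fold change 1.88 ± 0.08, adjusted p = 1.1e-08). Slit2 stood at 76.1, 76.5 and 90.2 CPM at E10.5 and 422, 370.4 and 387 CPM at E12.5 (log2 fold change 2.28 ± 0.09, adjusted p = 6.6e-09), and Sema5a rose from 220.3 to 789 CPM. Of receptor genes, Nrp1 rose from 59.8 to 250.4 CPM, Plxna4 from 21.5 to 159 CPM, Robo1 from 259 to 565 CPM and Robo2 from 54.3 to 189 CPM. Netrin-1 (Ntn1) rose from 58.8 to 236 CPM, and its receptor genes split, Unc5d up from 1.67 to 52.2 CPM and Unc5b and Unc5c down from 59.9 to 17.6 CPM and from 216 to 88.6 CPM. Epha3 fell from 325 to 204 CPM and Epha7 from 164 to 84.5 CPM. Of 36 cadherins and protocadherins, 24 rose and 2 fell, with Fat3 at 80.7, 98.1 and 113 CPM at E10.5 and 757, 794 and 814 CPM at E12.5 (log2 fold change 3.02 ± 0.13, adjusted p = 7.4e-09), Fat4 up from 459.9 to 1499 CPM, Fat1 from 810 to 2041 CPM and Cdh11, the mesenchymal cadherin, from 594 to 998 CPM. Cdh2 (N-cadherin) averaged 128 ± 6.98 and 138 ± 3.75 CPM (adjusted p = 0.243).

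Of the regulators of early crest, Twist1 stood at 202, 209 and 215 CPM at E10.5 and 470.2, 537 and 478 CPM at E12.5 (log2 fold change 1.25 ± 0.06, adjusted p = 3.4e-08) and Snai2 rose from 12.2 to 31.9 CPM, while Snai1 fell from 19.7 to 6.61 CPM, Sox11 from 1227 to 715 CPM and Myc from 15.8 to 8.03 CPM. The specifiers Tfap2a and Tfap2c were low in both groups and fell from 2.15 to 0.767 CPM and from 6.08 to 0.262 CPM. Over the 27 genes, 13 rose and 10 fell, 8 and 5 by at least 2-fold. The Sox family had 6 of 11 genes lower and 1 higher, and Sox4 averaged 489 ± 12.4 and 549 ± 71.5 CPM (adjusted p = 0.0993, but 0.0360 without the first E12.5 library). Of the forkhead genes tested, 12 of 24 fell and 9 rose. The 3 rises of at least 2-fold were those of Foxl2 (from 0.0656 to 1.80 CPM), Foxj2 (from 13.3 to 30.5 CPM) and Foxn3 (from 146 to 319 CPM). The 9 falls of at least 2-fold were those of Foxf1, Foxf2, Foxc1, Foxc2, Foxd1 (from 30.5 to 5.18 CPM), Foxd2 (from 34.8 to 1.07 CPM), Foxl1, Foxq1 and Foxm1.

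Genes whose mutation changes the mouse pinna did not move 1 way, with 10 higher and 11 lower of 25. Hoxa2, Bmp5, Wnt5a, Fgf10, Prrx1, Emx2, Msx1 and Ednra were among the risers, and Gsc, Hmx1 (from 84.8 to 35.8 CPM), Chd7 (from 322 to 86.6 CPM), Sall1 (from 6.64 to 0.477 CPM) and Gdf6 among those that fell. Polycomb and trithorax genes had 9 up and 9 down of 29. Of the writers of the repressive H3K27me3 mark, Ezh2 fell from 239.5 to 135 CPM (log2 fold change -0.82 ± 0.07, adjusted p = 7.8e-07) and Eed from 74.7 to 49.6 CPM, while Ezh1 rose from 22.9 to 39.5 CPM (log2 fold change 0.79 ± 0.06, adjusted p = 9.6e-07). Among the Polycomb reader genes, Cbx2 fell from 414 to 225 CPM and Cbx6 and Cbx8 rose from 68.4 to 136 CPM and from 28.9 to 42.8 CPM.

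Imprinted genes included several of the most abundant transcripts of this crest. H19 fell from 4138 to 2768 CPM, Mest from 2106 to 367 CPM (log2 fold change -2.52 ± 0.09, adjusted p = 2.2e-09) and Peg10 from 237 to 63.3 CPM. Copg2, on the opposite strand, shares 23.1% of the exonic bases of Mest. Peg3 rose from 1898 to 3199.9 CPM (log2 fold change 0.75 ± 0.07, adjusted p = 2.6e-06), Mirg, of the Dlk1 cluster, from 58.7 to 157 CPM and Kcnq1ot1 from 211 to 402 CPM. Of 38 imprinted genes tested, 14 rose and 18 fell. Asb4 fell from 59.6 to 1.87 CPM.

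Immediate-early genes were higher at E12.5, in 17 of 26 cases with 3 lower (median 1.22). Fos stood at 11.6, 5.63 and 8.33 CPM at E10.5 and 140.3, 119 and 252 CPM at E12.5 (log2 fold change 4.32 ± 0.31, adjusted p = 4.0e-07) and Egr1 at 2.61, 1.85 and 3.04 CPM at E10.5 and 52.1, 48.8 and 109 CPM at E12.5 (log2 fold change 4.80 ± 0.34, adjusted p = 3.3e-07). Nr4a1 rose from 5.68 to 61.1 CPM and Klf4 from 6.53 to 79.4 CPM. The summed level was 640 to 744 CPM at E10.5 and 1179 to 1694 CPM at E12.5, with the third pinna library the highest. At E14.5, where papain was used in place of trypsin, the sum was 3701 to 4292 CPM. These genes respond to dissociation within minutes, and the part of tissue handling in their rise was not tested. Ccn2, a matrix-linked member of the list, fell from 62.1 to 6.03 CPM (log2 fold change -3.36 ± 0.15, adjusted p = 1.4e-08).

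Most markers of other crest-derived lineages were at low levels. Counts of risers in these lists are partly set by the filter, which a gene silent at E10.5 could pass only through the pinna libraries. Of 16 melanocyte markers in the table, 15 passed it. Of these, 12 rose and 2 fell (median log2 fold change 2.87), against backgrounds of 35.0% and 33.7%. The summed level of the list was 92.9 to 106 CPM at E10.5 and 75.8 to 103 CPM at E12.5. Kit, which fell, made up most of that sum at E10.5. Dct stood at 0.602, 1.41 and 0.850 CPM at E10.5 and 8.06, 7.28 and 11.1 CPM at E12.5 (log2 fold change 3.21 ± 0.25, adjusted p = 6.5e-07), Pmel rose from 2.08 to 15.3 CPM and Tyr from 0.101 to 2.78 CPM. Tyrp1 had no count over the E10.5 libraries and 14 over the E12.5 libraries. Mitf rose from 3.56 to 10.0 CPM, whereas Kit, which mesenchyme can express too, fell from 65.3 to 24.3 CPM, as did Trpm1 from 16.4 to 5.12 CPM. Schwann cell and glial genes had 9 up and 3 down of 19, 6 and 1 of them by at least 2-fold (median 0.32). Summed over the list, they stood at 261 to 306 CPM at E10.5 and 348 to 371 CPM at E12.5. The glial regulator Sox10 averaged 5.24 ± 1.43 and 4.37 ± 0.427 CPM (adjusted p = 0.343). The neuronal list split evenly, 8 up and 8 down of 16, with Nefl at 7.99, 12.52 and 22.4 CPM at E10.5 and 94.4, 139.9 and 108 CPM at E12.5 (log2 fold change 2.99 ± 0.31, adjusted p = 5.7e-06), Syt1 up from 0.501 to 23.6 CPM and Stmn2 from 0.322 to 9.19 CPM, but Tubb3 down from 31.4 to 21.1 CPM, Elavl4 from 3.94 to 2.12 CPM and Dcx from 4.37 to 0.469 CPM. Of the 12 smooth muscle and pericyte genes tested, 6 rose and 4 fell (median 0.49). The list summed to 678.5 to 740 CPM at E10.5 and 764 to 950 CPM at E12.5. Most of that sum came from Pdgfrb and Notch3, named above among the matrix receptor and Notch genes. Rgs5 fell from 16.2 to 1.10 CPM, Kcnj8 from 1.27 to 0.130 CPM and Des from 6.32 to 0.864 CPM. Acta2 rose from 0.444 to 2.52 CPM and Cspg4 from 23.6 to 68.2 CPM. Whether neural or melanocyte genes rose in few cells or in the mesenchyme at large cannot be told from bulk libraries.

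Markers of cells outside the crest were low at both stages. Skeletal muscle markers summed to 14.7 to 19.6 CPM at E10.5 and 30.3 to 45.4 CPM at E12.5, against 88.6 to 90.2 CPM in the 3 WT PA2 libraries, with Ttn up from 0.951 to 11.8 CPM and Myh3 from 0.167 to 4.15 CPM. Endothelial genes rose in 5 of 15 cases and fell in 2, with Kdr up from 3.26 to 17.97 CPM, although Pecam1 and Cdh5 did not pass (adjusted p 0.0776 and 0.188). Without the first E12.5 library Pecam1 was called lower (log2 fold change -1.46, adjusted p = 0.00037). The epithelial list rose in 10 of 20 genes and fell in 4. Its members Epcam (3.94 ± 0.413 and 3.29 ± 0.0452 CPM), Krt14 (0.0114 ± 0.0198 and 0.305 ± 0.160 CPM) and Trp63 (0.279 ± 0.0258 and 0.298 ± 0.0606 CPM) stayed under 5 CPM. Krt14 was called higher, with 1 count over the E10.5 libraries and 27 over the E12.5 libraries. Krt5 was called higher too, but not with limma-voom (log2 fold change 2.40, adjusted p = 0.0578). Of 20 blood cell markers, 3 were above the filter and Coro1a fell from 16.4 to 8.16 CPM. Their sum was 20.1 to 24.9 CPM at E10.5 and 12.1 to 13.4 CPM at E12.5, against 58.3 to 65.5 CPM in the WT PA2 libraries. The Y-linked genes Ddx3y, Eif2s3y, Kdm5d and Uty were all higher at E12.5, Uty at 32.0, 24.0 and 28.8 CPM at E10.5 and 63.0, 77.0 and 56.5 CPM at E12.5, although Kdm5d was not called without the second E10.5 library (adjusted p = 0.0519). Xist averaged 278 ± 44.9 and 273 ± 118 CPM (adjusted p = 0.955). The part of the mix of sexes in other results was not tested.

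**Figure D4:**
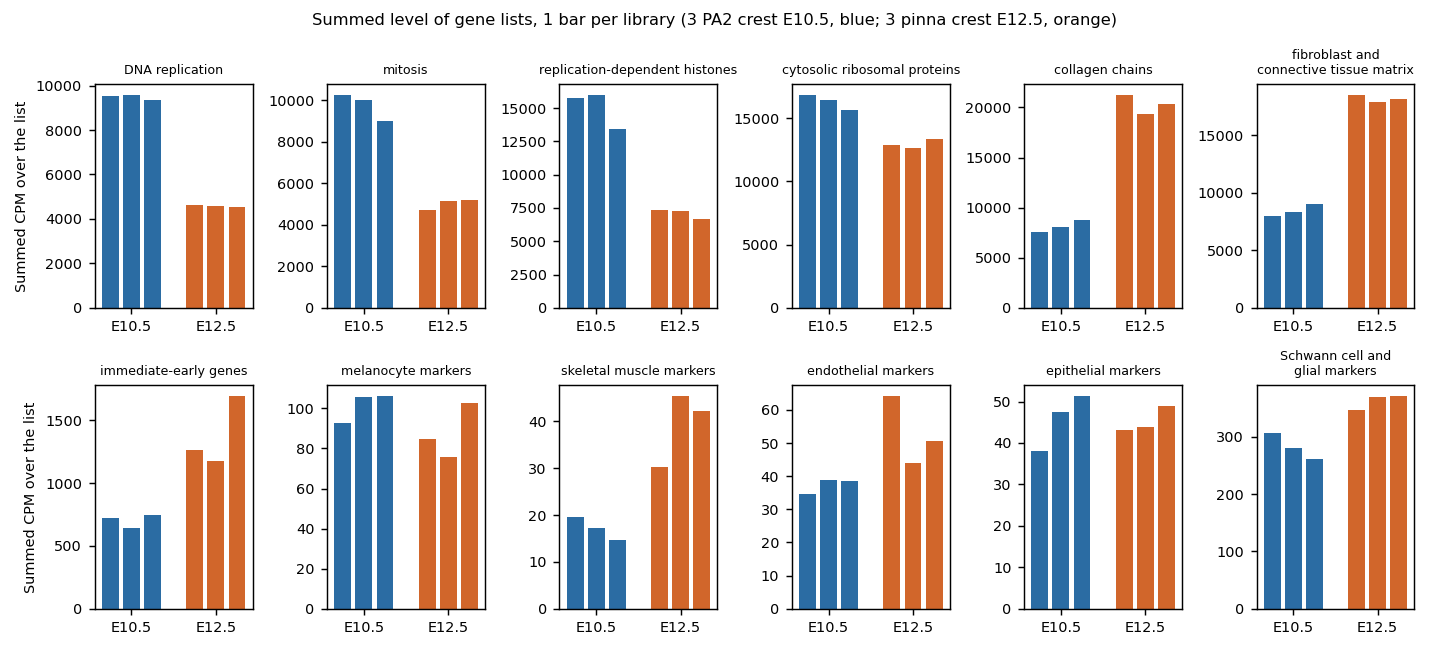
Summed CPM over the genes of 12 lists (y axis, from 0), 1 bar per library, for 3 PA2 crest libraries of E10.5 and 3 pinna crest libraries of E12.5. Every E12.5 bar of the cell cycle, histone and ribosomal protein lists is below every E10.5 bar, every E12.5 bar of the collagen and matrix lists is above, and no library exceeds 64.2 CPM for the muscle, endothelial or epithelial list.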

How the data were processed

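The 6 libraries were 50-base single-end reads from unstranded TruSeq libraries of total RNA. The deposited table holds a raw count for each gene and library, obtained by the authors in QuasR (spliced alignment with Rhisat2 to GRCm38, counting over UCSC known genes in the opposite orientation). As the labels call the kit unstranded, reads of overlapping genes on opposite strands cannot be told apart. Counts at both stages and at E14.5 (9 libraries) were fitted together in R 4.3.3 with edgeR 4.0.16 (TMM, quasi-likelihood test, two-sided, Benjamini-Hochberg adjustment over 13438 genes), after a filter of at least 1 CPM in at least 2 libraries. Standard errors were taken from the fold change and the F statistic, and 482 genes passed the filter only through E14.5. Where a group had 1 to 3 counts, the ratio of summed counts with an exact 95% interval is given. A group at 0 was set at 3 counts over its libraries (3 counts are 0.098 to 0.111 CPM in a single library), and that ratio leaves out counting error. The fit was also run on simulated counts with known changes, the outcome of which is not given here. Alternatives were run with DESeq2 1.42.0 and limma 3.58.1, other filters and scalings, a replicate block, and without each library in turn. Replicates of a stage differed by more than sampling noise (chi-square over genes divided by its degrees of freedom, 9.66 to 21.1).

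Members and gene lists were chosen with earlier results of these data known. Named genes are the 12 largest rises and falls by log2 fold change (at least 5 CPM, ranges apart, no clone names), the 8 largest in CPM, Hoxa2 and, of each list, its first 3 members, the 2 largest rises and falls and its most abundant member per kilobase. Other list members and all families in the closing observations were named after their values were seen. Gene positions and exon overlaps are from GENCODE M21 (GRCm38) and were found for 271 of the 293 genes of the rule. Of these, 26 share over 10% of their exonic bases with a gene on the opposite strand and 7 with one on the same strand. Of 24594 genes in the table, 18 had no symbol. Of the other 12 libraries of the series, only the 3 of WT PA2 were used, and only for summed marker levels.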

Additional observations from a re-analysis of the deposited data

How the results depend on the processing

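The 4 counts of genes over the whole comparison were within 1.5 times their reported values in all 17 alternatives except that a filter of 1 CPM in every library compared left 1168 genes higher and 569 lower by at least 2-fold, because it removes genes silent at one stage. Over the alternatives, the genes called higher numbered 4006 to 5120 and those called lower 3804 to 4701. Leaving out 1 library gave 4382 to 4532 higher and 4049 to 4328 lower, and 1886 to 2049 higher and 848 to 931 lower by at least 2-fold. With the replicate number as a block, 4654 genes were higher and 4460 lower, of which 4600 and 4415 were shared with the reported calls. The numbers gave no sign of pairing, as the deviations of same-numbered libraries from their group means correlated at -0.324, -0.141 and -0.0117. With total counts as the only scaling the median of all genes moved by 0.0556 on the log2 scale, the largest such shift, and 5120 genes were higher and 4113 lower. DESeq2 called 4637 higher and 4631 lower and limma-voom 4570 and 4478. The 6 libraries filtered and fitted alone, without E14.5, gave 1795 genes higher and 895 lower by at least 2-fold, of 12956 tested. Of 445 genes named here or chosen by the naming rule, 12 lost their call in at least 1 alternative, none of them reversed in direction. Beside Dlx5, Gli2, Pknox1 and Kdm5d they included Bmp4, Cdh3, Ednrb, Gap43, H3c14, Krt5 and Ramp2, with adjusted p between 0.0509 and 0.196 where lost. Of the counts of called genes by list under the alternatives, 1499 were within 1.5 times the reported count and 65 were not. Of the list medians, 656 moved by less than the spread between replicates and 80 by more.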

Other observations

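Gene families outside the lists of the report were grouped by their symbols after earlier results of these data were known, and are given as counts beside the backgrounds of 35.0% higher and 33.7% lower. The machinery of protein synthesis and turnover was mostly lower. All 17 aminoacyl-tRNA synthetase genes were lower (median log2 fold change -0.64), Gars from 243 to 116 CPM and Aars from 316 to 164 CPM. Of 34 proteasome subunits, 32 were lower and 0 higher (median -0.72), for example Psma7 (from 221 to 118 CPM, log2 fold change -0.91 ± 0.06, adjusted p = 1.4e-07). All 8 subunits of the CCT chaperonin, which folds actin and tubulin, were lower (median -0.88), Cct3 at 710.5, 708 and 621 CPM at E10.5 and 324, 328 and 315 CPM at E12.5 (log2 fold change -1.08 ± 0.07, adjusted p = 2.1e-07). Of 53 initiation factor genes, 40 were lower and 5 higher, Eif4a1 falling from 642 to 354 CPM while Eif4a2 rose from 262 to 384 CPM (log2 fold change 0.55 ± 0.09, adjusted p = 1.5e-04). One of the 5 risers, Eif2s3y, is Y-linked. Of 19 heterogeneous nuclear ribonucleoprotein genes, 15 were lower and 0 higher, Hnrnpab from 1099 to 533 CPM. Cathepsins, the proteases of the lysosome, went the other way, with 9 of 10 genes higher, Ctsk from 4.00 to 41.7 CPM and Ctsb from 99.4 to 172 CPM.

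Families of the cell surface differed. As for the lineage markers, counts of risers are partly set by the filter, which a gene silent at E10.5 could pass only through the pinna libraries. Glypicans and syndecans had 4 genes higher and 5 lower of 9, and aquaporins, claudins and connexins 6 higher and 6 lower of 14. ADAM proteases were higher in 7 of 14 genes and lower in 1. Of 16 glutamate receptor subunits, 13 were higher and 2 lower (median 1.93). Grik3 stood at 3.55, 4.15 and 3.82 CPM at E10.5 and 46.9, 44.7 and 40.8 CPM at E12.5 (log2 fold change 3.52 ± 0.10, adjusted p = 4.9e-10), Gria2 rose from 14.1 to 44.3 CPM and Grik1 from 6.72 to 30.0 CPM. Potassium channel subunits were higher in 27 of 49 genes and lower in 10, with Kcnd3 up from 2.73 to 33.1 CPM (log2 fold change 3.60 ± 0.15, adjusted p = 5.5e-09) and Kcnh2 down from 10.9 to 4.74 CPM. All 21 protocadherins of the Pcdhb cluster, single-exon genes of similar sequence that may share reads, were higher, each by at least 2-fold (median 2.15), Pcdhb22 from 7.998 to 19.5 CPM and Pcdhb19 from 5.13 to 19.2 CPM. Matrix proteases of the Adamts family were higher in 17 of 23 genes and lower in 3, with Adamts17 up from 8.72 to 72.6 CPM, Adamtsl1 from 8.51 to 90.3 CPM and Adamts12 from 10.2 to 81.9 CPM, but Adamts18 down from 9.59 to 0.244 CPM (log2 fold change -5.29 ± 0.29, adjusted p = 5.0e-08). Integrin subunits rose in 11 of 18 genes, Itgb3 from 3.05 to 36.1 CPM and Itga4 from 4.40 to 26.9 CPM. Among laminin chains, Lama1 fell from 179.8 to 31.9 CPM (log2 fold change -2.49 ± 0.08, adjusted p = 1.1e-09) while Lama2, Lama4 and Lamb2 rose from 71.4 to 222 CPM, 52.7 to 122 CPM and 87.1 to 189 CPM. The water channel gene Aqp1, named for its size of change, stood at 0.769, 0.858 and 0.915 CPM at E10.5 and 64.8, 61.3 and 65.1 CPM at E12.5 (log2 fold change 6.23 ± 0.11, adjusted p = 1.2e-11). Of 357 zinc finger genes with Zfp names, 153 were higher and 59 lower, mostly by small amounts (23 and 6 by at least 2-fold).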
